A study of Bos taurus with 10 samples.

Results

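S100A14, S100A10, S100A11, ANXA1, ANXA2, ANXA3, ANXA5, CPNE3, LGALS1 and LGALS3 are 10 genes of the S100, annexin, copine and galectin families, and they were followed here in early cattle embryos. They were taken by symbol from a table of 28700 genes, and all 10 were present. They were selected on their FPKM values in these same libraries, with the difference between knockdown and control morulae known, and without a cut-off. For these 10 genes the difference between treatments in morulae is therefore given as a description, without a test. RNA with a poly(A) tail was measured by sequencing in Bos taurus embryos. As zygotes, all embryos had received an injection of small interfering RNA, directed at H1FOO, the linker histone of the oocyte, in the knockdown group (KD), or of a negative control sequence in the other group (NC). Embryos were taken 4 days after insemination, at the 8/16-cell stage (2 NC and 2 KD libraries), or 5.5 days after it, at the morula stage (3 NC and 3 KD libraries). All groups were thus injected, the knockdown reduces the transcript without deleting the gene, and the labels do not say how many embryos entered a library.

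S100 proteins are small calcium-binding proteins of the EF-hand type that dimerise and, on binding calcium, expose a surface for partner proteins. S100A10 is an exception that has lost calcium binding and stays in the open form, in which it joins pairs of ANXA2 molecules into a complex under the cell membrane. Annexins bind acidic phospholipids of membranes when calcium rises, and copines do so through C2 domains. Galectins are cytosolic and secreted lectins that bind beta-galactosides and need no calcium, so the families share work at the cell surface and cortex rather than calcium dependence. In the compacting morula the outer cells become a polarised epithelium that goes on to form the trophectoderm, and several of these genes are known from epithelia. The libraries were made from whole embryos. They do not show which cells held a transcript, and fewer cells of a type cannot be told apart from less RNA per cell.

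H1FOO stood at 50.8 and 10.8 FPKM (fragments per kilobase of gene, scaled to the mapped fragments of the library) in NC 8/16-cell libraries, against 0.649 and 0.0736 FPKM with the knockdown. In morulae it was at 0.294, 1.05 and 2.17 FPKM in NC, against 0.0610, 0.191 and 0.251 FPKM in KD. The summed FPKM of the table was 345464 to 669836 per library, read depth is unknown, and 11103 to 11872 genes reached 1 FPKM. RN18S1, an 18S ribosomal RNA gene, ranged from 2704 to 8611 FPKM in NC and from 8553 to 11581 FPKM in KD morulae, and its part in the differences between morulae was not tested. Of 17 cumulus and granulosa markers, which label the follicle cells that surround an oocyte, 16 were above 0 in at least 1 library and FSHR was at 0 in all. Their summed level was 96.3 to 103 FPKM in NC and 168 to 175 FPKM in KD 8/16-cell embryos, and 75.7 to 88.8 FPKM in NC and 66.5 to 138 FPKM in KD morulae. KD morula replicate 3 had the 138 FPKM, against 66.5 and 70.3 FPKM in the other KD morulae, and stood apart from them in several genes below. SERPINE2 alone gave 75.8 of the 88.8 FPKM in NC morula replicate 1 and 45.9 of the 66.5 FPKM in KD morula replicate 1. In KD morula replicate 3 it gave 35.0 of the 138 FPKM, so the sums reflect different markers in different morulae. The 14 trophectoderm markers summed to 249 to 464 FPKM in NC and 159 to 240.2 FPKM in KD morulae, with NC replicate 1 highest and KD replicate 3 lowest. The 13 inner cell mass markers summed to 1157 to 1564 FPKM in NC and 950.4 to 1341 FPKM in KD morulae. Of these, NANOG and KLF17 were higher, and OTX2 and LIN28A lower, in every KD than in every NC morula. Of the 12 tested, 9 had a negative log2 difference between KD and NC morulae. The summed level of the markers of the oocyte (12 genes, H1FOO among them) fell from 127 to 261 FPKM at the 8/16-cell stage to 16.1 to 27.6 FPKM in morulae. OOEP did not fall (4.01 to 9.53 FPKM at the 8/16-cell stage, against 6.22 to 14.8 FPKM in morulae). Blood and immune markers (9 genes) summed to 2.96 to 6.85 FPKM, and sperm markers (7 genes) to 12.4 to 28.6 FPKM.

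The 10 genes together took up more of the transcriptome in NC morulae than in any other group. Their summed level was 272 and 234 FPKM in NC, against 338 and 302 FPKM in KD 8/16-cell libraries. It was 981, 524 and 732 FPKM in NC morulae and 435, 359 and 413 FPKM in KD morulae. ANXA2 and LGALS3 alone made up 23.5 to 35.2% of that sum at the 8/16-cell stage, 55.0 to 62.3% in NC morulae and 36.9 to 61.9% in KD morulae. FPKM is scaled by gene length, so levels of different genes can be ordered. In NC 8/16-cell embryos the order of mean levels was ANXA2 (83.8 FPKM), LGALS1 (48.3), ANXA5 (38.7), S100A11 (29.0), S100A10 (25.8), S100A14 (13.6), CPNE3 (5.28), ANXA1 (5.06), LGALS3 (2.58) and ANXA3 (0.626). In that group S100A11 overlapped S100A10, CPNE3 overlapped ANXA1, and the other neighbours in the order had separate values in the 2 libraries. KD embryos of that stage had LGALS1 (75.9 FPKM) and ANXA2 (75.3 FPKM) level at the top. By the NC morula LGALS3 had moved from the ninth place to the second at 145 FPKM, behind ANXA2 (291 FPKM) and ahead of S100A14 (103 FPKM), each overlapping the next. In KD morulae the order began with ANXA2 (156 FPKM), LGALS1 (59.7), S100A10 (54.8) and LGALS3 (43.6), while S100A14 (17.0) was in the seventh place. The plot of all values by library shows these levels.

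**Figure D1:**
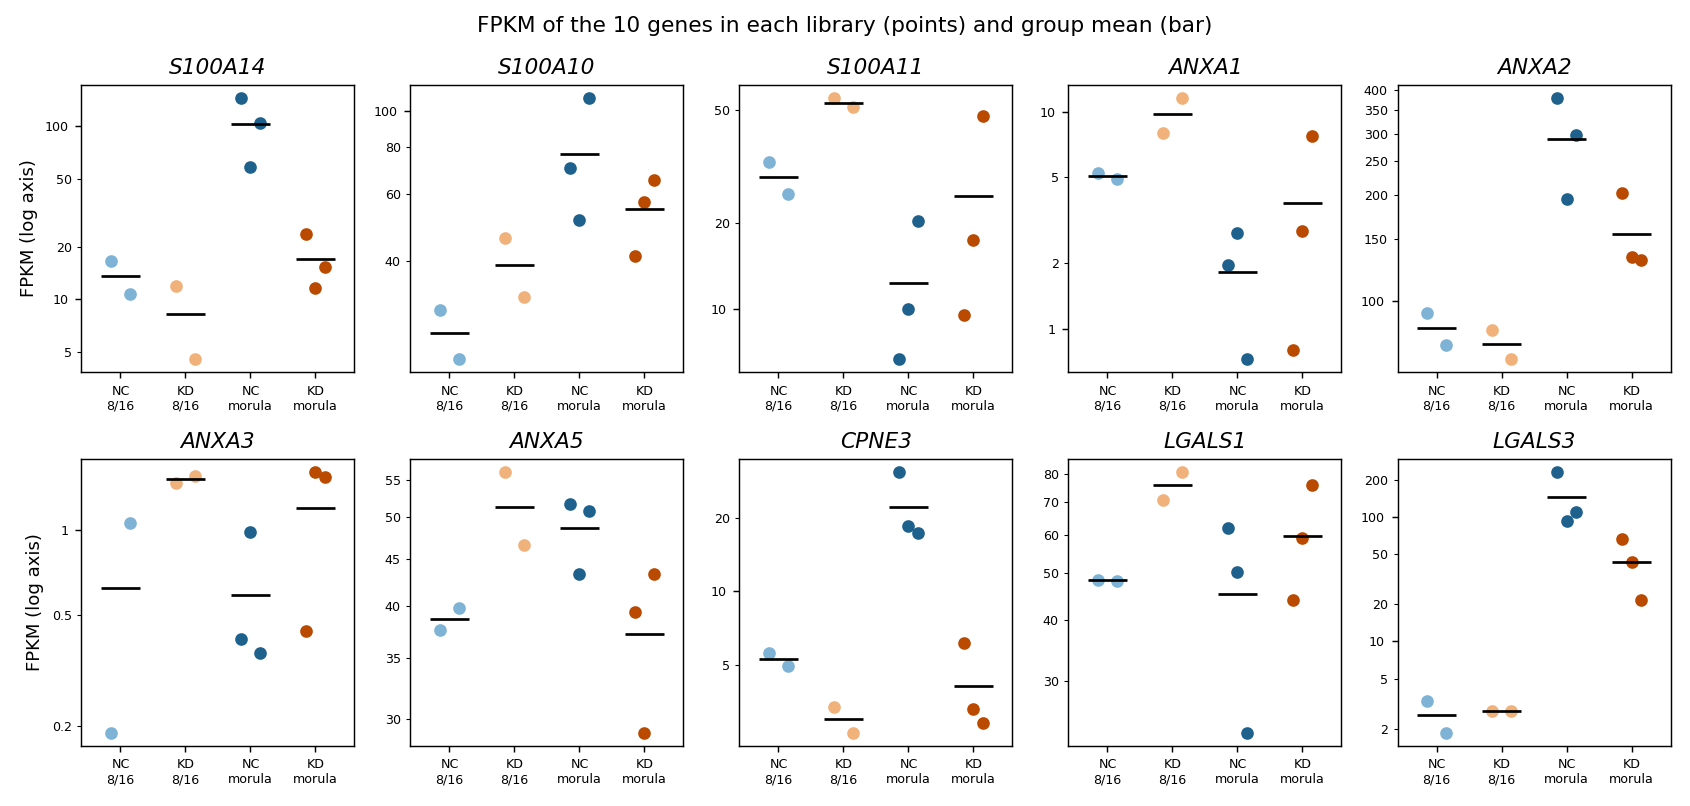
FPKM of each gene (log axis, scaled per gene) in the 10 libraries: points are libraries and bars are group means, for NC and KD embryos at the 8/16-cell and morula stages. LGALS3 and ANXA2 had every morula above every 8/16-cell library, while S100A14 and CPNE3 were high in the 3 NC morulae only.

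S100A14, an S100 protein of epithelia, was the S100 gene of the list whose level differed most between groups. It stood at 16.6 and 10.7 FPKM in NC 8/16-cell, 11.9 and 4.53 FPKM in KD 8/16-cell, 146, 58.5 and 104 FPKM in NC morula and 24.0, 11.7 and 15.4 FPKM in KD morula libraries. All 3 NC morulae were above every other library, and KD morulae overlapped the NC 8/16-cell embryos. The mean level of KD morulae was 6.05-fold lower than that of NC morulae (103 ± 43.8 against 17.0 ± 6.34 FPKM, SD, n = 3 each), a log2 difference of -2.49 (SE 0.40). From the 8/16-cell stage to the morula S100A14 changed by 2.76 (SE 0.45) in NC and by 1.04 (SE 0.45) in KD on the log2 scale.

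S100A10, the partner of ANXA2, rose towards the morula. Its levels were 29.7 and 22.0 FPKM in NC, against 46.0 and 32.1 FPKM in KD 8/16-cell libraries, and 70.6, 51.2 and 108 FPKM in NC, against 41.2, 57.4 and 65.7 FPKM in KD morulae. NC morulae were all above NC 8/16-cell embryos, whereas KD morulae overlapped the KD 8/16-cell embryos and the NC morulae. The log2 difference of KD from NC morulae was -0.44 (SE 0.28), and without NC morula replicate 3 it was -0.16.

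S100A11, the partner of ANXA1, went the other way and fell. It stood at 32.7 and 25.3 FPKM in NC, against 55.1 and 51.1 FPKM in KD 8/16-cell libraries, and at 6.66, 9.98 and 20.4 FPKM in NC, against 9.53, 17.5 and 47.8 FPKM in KD morulae. Within each treatment every morula was below every 8/16-cell library, and the NC and KD morulae overlapped. The KD morula mean rested on replicate 3: the log2 difference from NC was 0.80 (SE 0.50) with it and 0.20 without it.

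ANXA2, which links membranes to cortical actin, was the most abundant of the 10 genes in 3 of the 4 groups. Its levels were 92.4 and 75.1 FPKM in NC, against 82.4 and 68.3 FPKM in KD 8/16-cell libraries, and 379, 195 and 297 FPKM in NC, against 203, 133 and 131 FPKM in KD morulae. Every morula exceeded every 8/16-cell library, and the highest KD morula was above the lowest NC morula. The KD morula mean was 1.87-fold lower than the NC mean (156 ± 41.3 against 291 ± 92.2 FPKM, SD, n = 3 each), a log2 difference of -0.88 (SE 0.26). The log2 change between stages was 1.74 (SE 0.29) in NC and 1.01 (SE 0.29) in KD.

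ANXA1, an annexin known for its role in resolving inflammation, was a low-level transcript that fell. It stood at 5.22 and 4.90 FPKM in NC, against 7.96 and 11.6 FPKM in KD 8/16-cell libraries, and at 1.97, 2.76 and 0.724 FPKM in NC, against 0.797, 2.81 and 7.76 FPKM in KD morulae. As with S100A11, each treatment's morulae were below its 8/16-cell embryos, and KD morula replicate 3 was the highest morula. The log2 difference between KD and NC morulae was 0.55 (SE 0.49), and -0.04 without that library.

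ANXA5, which binds phosphatidylserine on membranes, was held within a narrow range of 29.0 to 56.1 FPKM over all libraries. It was at 37.6 and 39.8 FPKM in NC, against 56.1 and 46.6 FPKM in KD 8/16-cell libraries, and at 51.7, 43.3 and 50.8 FPKM in NC, against 39.4, 29.0 and 43.3 FPKM in KD morulae. KD was above NC in every library at the first stage and below it in every library at the second, although the lowest NC and the highest KD morula both round to 43.3 FPKM. Such an exchange of sides was found for 2.53% of all genes, and a gain in every NC with a loss in every KD morula, which ANXA5 also showed, for 1.32%; ANXA5 was chosen with the morula values known. ANXA3 had a mean of 0.967 FPKM over all libraries, below the minimum of 1 FPKM for testing. It ranged from 0.190 to 1.57 FPKM at the 8/16-cell stage and from 0.365 to 1.62 FPKM in morulae, and the treatments overlapped in morulae. At the 8/16-cell stage both KD values of ANXA3 (1.48 and 1.57 FPKM) were above both NC values (0.190 and 1.06 FPKM).

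CPNE3, a copine that binds membranes through C2 domains, differed nearly as much as S100A14. It stood at 5.60 and 4.96 FPKM in NC, against 3.38 and 2.65 FPKM in KD 8/16-cell libraries, and at 30.8, 18.5 and 17.3 FPKM in NC, against 6.13, 3.30 and 2.90 FPKM in KD morulae. KD was below NC in every library of both stages, and the KD morulae overlapped the KD 8/16-cell embryos. The KD morula mean was 5.40-fold lower than the NC mean (4.11 ± 1.76 against 22.2 ± 7.48 FPKM, SD, n = 3 each), a log2 difference of -2.19 (SE 0.27). Its log2 change between stages was 1.84 (SE 0.31) in NC and 0.30 (SE 0.31) in KD.

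LGALS3, a galectin with a self-associating tail, had the largest stage change of the 9 genes tested. Its levels were 3.30 and 1.85 FPKM in NC, against 2.77 and 2.74 FPKM in KD 8/16-cell libraries, and 231, 93.1 and 109 FPKM in NC, against 66.1, 43.3 and 21.4 FPKM in KD morulae. Every morula was far above every 8/16-cell library, and all 3 KD morulae were below all 3 NC morulae. On the FPKM scale the morula mean was 56.1 times the 8/16-cell mean in NC and 15.8 times in KD. The log2 difference of KD from NC morulae was -1.73 (SE 0.41), -1.33 without NC replicate 1 and -1.30 without KD replicate 3, which held the highest and the lowest level.

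LGALS1, a dimeric galectin abundant in mesenchymal cells, did not pass between stages, with a log2 difference of -0.20 (SE 0.35) in NC and -0.37 (SE 0.35) in KD. It stood at 48.5 and 48.2 FPKM in NC, against 70.8 and 81.0 FPKM in KD 8/16-cell libraries, and at 62.0, 50.3 and 23.4 FPKM in NC, against 44.0, 59.2 and 76.0 FPKM in KD morulae. The stages overlapped in both treatments, and the treatments overlapped in morulae. The log2 difference between KD and NC morulae was 0.47 (SE 0.32), and 0.06 without NC morula replicate 3, the lowest library.

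**Figure D2:**
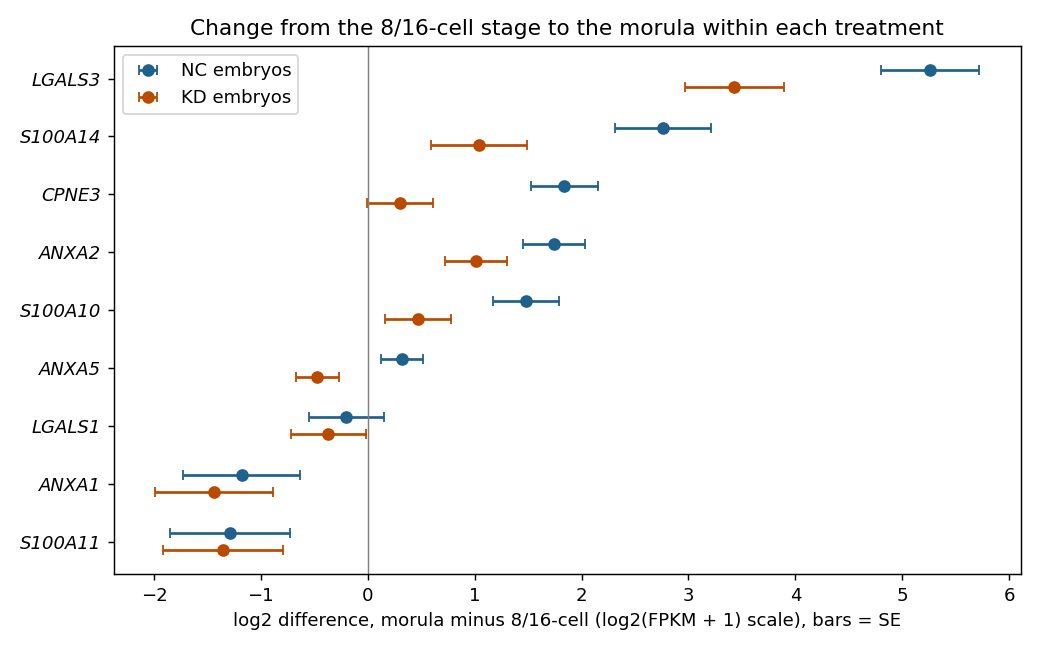
Log2 difference between morula and 8/16-cell embryos on the log2(FPKM + 1) scale for the 9 tested genes, within NC (blue) and KD (orange), with bars of 1 SE from the limma fit. The NC point of S100A14 lies at 2.76 and its KD point at 1.04, while those of S100A11 lie close together at -1.29 and -1.35.

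Between the stages 5 of the 9 tested genes rose and 2 fell. This comparison took the mean of NC and KD at each stage. With equal numbers of NC and KD libraries the error of that mean is uncorrelated with the error of the difference between treatments, but the same morulae were in view when the genes were chosen, so the calls are no independent evidence about the list. The genes that rose were LGALS3 (log2 change 4.35, SE 0.32, limma adjusted p 1.87e-05), S100A14 (1.90, SE 0.32, adjusted p 0.00106), ANXA2 (1.38, SE 0.21, adjusted p 0.000602), CPNE3 (1.07, SE 0.22, adjusted p 0.00295) and S100A10 (0.98, SE 0.22, adjusted p 0.00538). For CPNE3 the mean joins 1.84 in NC with 0.30 in KD, where the stages overlapped, and S100A14 and S100A10 also overlapped between stages in KD. Among all 11761 genes tested 15.3% rose and 28.2% fell in this comparison (43.5% in all), and the median log2 change was 0.98 for the 9 genes and -0.13 for all genes. For LGALS3 and ANXA2 all 6 morulae were above all 4 libraries of the earlier stage, as for 8.73% of all genes. None of the 9 had all morulae below all earlier libraries, as 19.1% of all genes did. Within NC 6 of the 9 had every morula above every earlier library (24.3% of all genes) and S100A11 and ANXA1 had every morula below (32.6%). Within KD ANXA2 and LGALS3 had every morula above (16.6%), and S100A11, ANXA1 and ANXA5 had every morula below (36.7%). These counts within a treatment draw on the libraries with which the genes were chosen and are descriptions.

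S100A11 (-1.32, SE 0.39, limma adjusted p 0.0203) and ANXA1 (-1.31, SE 0.39, adjusted p 0.0194) fell. The call for S100A11 was lost without NC 8/16-cell replicate 1 (adjusted p 0.0762), KD 8/16-cell replicate 1 (0.062) or 2 (0.0575) or NC morula replicate 1 (0.0505). The call for ANXA1 was lost without NC 8/16-cell replicate 1 (0.0637) or 2 (0.0565) or KD 8/16-cell replicate 2 (0.0766). ANXA5 (log2 difference -0.07, 95% interval -0.38 to 0.23, limma adjusted p 0.686) and LGALS1 (-0.29, -0.84 to 0.27, adjusted p 0.377) did not pass, and the sign for ANXA5 turned with equal FPKM sums (0.03) and quantile normalization (0.07). The columns of the stages may have been made apart and merged, since for 75 of 81 symbols that stand on several lines the morula columns hold more distinct sets of values than the 8/16-cell columns. Any difference in how they were made is part of the stage comparison.

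At the 8/16-cell stage none of the 9 tested genes passed between KD and NC. Limma gave 0 at an adjusted p under 0.05 and 0 at an unadjusted p under 0.05. Of all 11761 genes 0.017% passed and 514 had an unadjusted p under 0.05. H1FOO, the target, did not pass either (log2 difference -4.22, limma adjusted p 0.104, or 0.0107 with the replicate number as a block). A change of that size can thus miss the threshold here. With that block, and with the stage fitted alone, none of the 9 genes passed either, and some had an unadjusted limma p under 0.05. Shares of all genes at an unadjusted p are not given for those fits, so nothing is read from this. S100A11 (log2 difference 0.86, 95% interval -0.49 to 2.21), ANXA1 (0.81, -0.51 to 2.13), LGALS1 (0.64, -0.22 to 1.5), S100A10 (0.57, -0.19 to 1.33) and ANXA5 (0.39, -0.09 to 0.87) had every KD value above every NC value. CPNE3 (-0.65, -1.39 to 0.09) had every KD value below. Such separate values were found for 19.3% of all genes with KD above and for 13.9% with KD below. S100A14 (-0.76, -1.84 to 0.32), ANXA2 (-0.15, -0.85 to 0.55) and LGALS3 (0.10, -1.01 to 1.21) overlapped. The difference of S100A14 was -0.15 without KD replicate 2 and -1.37 without KD replicate 1, and that of S100A10 ran from 0.32 to 0.82 over single libraries left out. With 2 libraries per group these intervals allow differences of more than 2-fold for S100A14, S100A11, ANXA1, LGALS1, S100A10, CPNE3 and LGALS3. Beside the 5 genes that lay higher in KD, 8 of the 12 tested cumulus and granulosa markers also had every KD 8/16-cell value above every NC value, and their part in these differences was not tested.

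**Figure D3:**
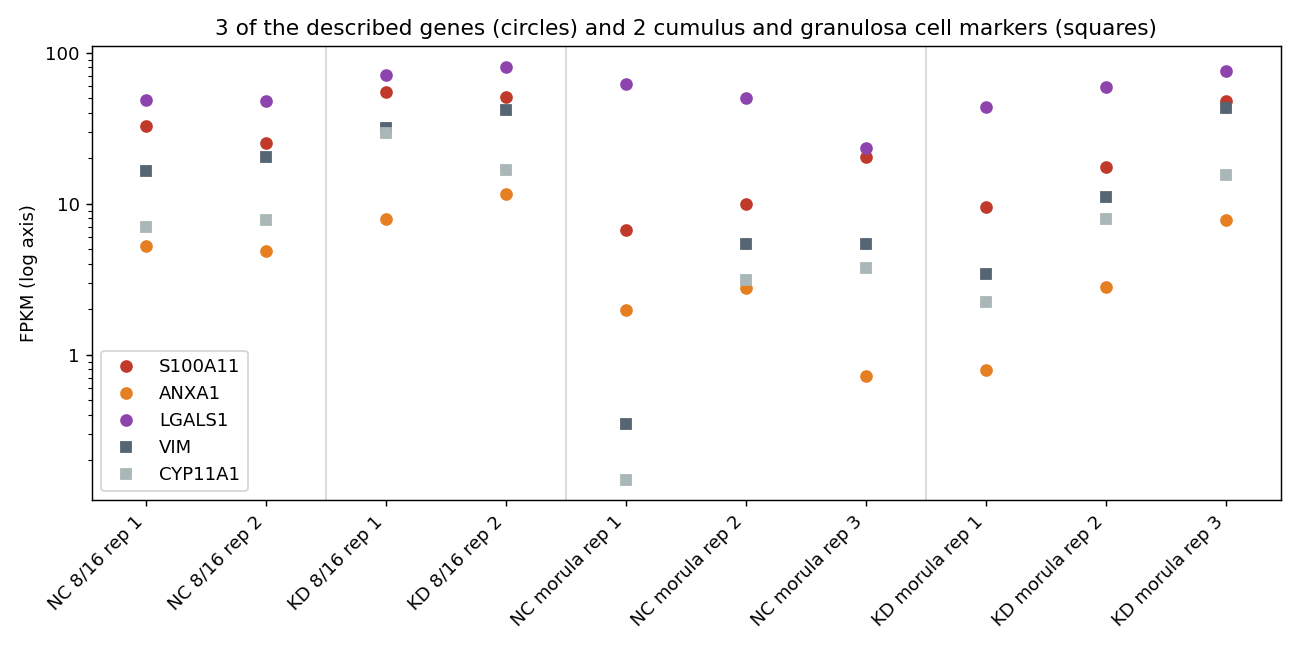
FPKM (log axis) of S100A11, ANXA1 and LGALS1 (circles) and of the cumulus and granulosa markers VIM and CYP11A1 (squares) in each of the 10 libraries, with vertical grey lines dividing the groups. All 5 genes plotted have their highest morula value in KD replicate 3, at 47.8, 7.76, 76.0, 43.3 and 15.4 FPKM; VIM and CYP11A1 are 2 of the 5 markers, out of 16 above 0 in morulae, that do.

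VIM, an intermediate filament gene of mesenchymal and cumulus cells, stood at 16.4 and 20.3 FPKM in NC, against 31.9 and 41.5 FPKM in KD 8/16-cell libraries. In morulae it was at 0.346, 5.40 and 5.42 FPKM in NC, against 3.44, 11 and 43.3 FPKM in KD. Like S100A11 and ANXA1, VIM was higher in both KD than in both NC 8/16-cell libraries and highest among morulae in KD replicate 3. VIM and CYP11A1 were singled out after their values were seen. Of the 16 markers above 0 in morulae 5 were highest in KD replicate 3 (VIM, CYP11A1, STAR, HSD3B1 and LUM), 5 in KD replicate 2, 1 in KD replicate 1 and 5 in NC libraries, among them SERPINE2 at 75.8 FPKM in NC replicate 1. CYP11A1, a steroid-making enzyme of granulosa cells, was at 7 and 7.85 FPKM in NC, against 29.2 and 16.8 FPKM in KD 8/16-cell libraries. The part of these markers in the levels of S100A11, ANXA1 and LGALS1 was not tested.

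In morulae 4 of the 9 tested genes, S100A14, CPNE3, LGALS3 and ANXA5, had every KD value below every NC value, and none had every KD value above. Among all genes 15.3% had KD below and 8.44% had KD above; the genes were chosen with this contrast known, so nothing is read from the count. The median log2 difference was -0.44 for the 9 genes and -0.08 for all genes. Of the 14 trophectoderm markers 11 were below 0, with a median of -0.65, and 1 passed (limma, against 0.697% of all genes). Of 12 tested inner cell mass markers 9 were below 0, with a median of -0.33. NANOG (6.48, 14.4 and 18.8 FPKM in NC, against 25.4, 39.0 and 37.8 FPKM in KD) had every KD value above every NC value. So had KLF17 (49.8, 71.4 and 79.0 FPKM in NC, against 84.7, 147 and 157 FPKM in KD). OTX2 (71.9, 42.8 and 39.6 FPKM in NC, against 35.6, 18.6 and 4.62 FPKM in KD) had every KD value below every NC value. LIN28A (49.1, 44.1 and 25.1 FPKM in NC, against 23.3, 21.5 and 7.88 FPKM in KD) did as well. Of 12 tested cumulus and granulosa markers 9 were above 0, with a median of 0.41. None of either list passed (limma, 0 at an adjusted p under 0.05 and 5 in each list at an unadjusted p under 0.05). Among all genes 21.2% had an unadjusted p under 0.05 and 57.9% were below 0. The part of these markers in the differences was not tested. The largest described difference, that of S100A14, ran from -2.85 to -2.19 when single libraries were left out.

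ANXA2 and S100A10 form a complex, and the ratio of their transcripts was followed in each library. S100A10 stood at 0.321 and 0.293 times ANXA2 in NC and 0.559 and 0.470 times in KD 8/16-cell libraries, and at 0.186, 0.262 and 0.364 times in NC and 0.203, 0.432 and 0.502 times in KD morulae. ANXA2 was thus the more abundant transcript in every library, and the ratios of NC and KD overlapped in morulae but not in 8/16-cell embryos. Levels of single genes were separate at that stage for 19.3% of all genes with KD above and 13.9% with KD below. No such share is given for ratios, so nothing is read from the separation. S100A11 stood at 6.26 and 5.15 times ANXA1 in NC and 6.92 and 4.43 times in KD 8/16-cell libraries. In morulae it was 3.38, 3.61 and 28.1 times in NC and 12.0, 6.23 and 6.17 times in KD, the widest spread lying in NC replicate 3, where ANXA1 was at 0.724 FPKM. S100A11 exceeded ANXA1 in all 10 libraries.

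The families hold 38 further genes in the table, of which 21 reached a mean of 1 FPKM. LGALS7B reached it through the morulae only (0.614 FPKM at the 8/16-cell stage and 4.90 FPKM in morulae) and is left out of the counts between stages. Of the other 20 genes 8 rose and 4 fell, against 15.3% and 28.2% of all genes. S100A5 (log2 change 2.79, SE 0.50, limma adjusted p 0.00152), LGALS4 (2.77, SE 0.24, adjusted p 3.58e-05), ANXA6 (2.41, SE 0.26, adjusted p 0.000119) and ANXA8L1 (2.19, SE 0.39, adjusted p 0.00147) had the largest rises. ANXA6, an annexin with a doubled core, went from 9.53 and 9.80 FPKM in NC, against 18.3 and 14.4 FPKM in KD 8/16-cell libraries to 166, 74.2 and 86.8 FPKM in NC, against 78.6, 43.0 and 34.7 FPKM in KD morulae. LGALS7 (1.37), S100A2 (1.26), S100A16 (0.74) and CPNE1 (0.49) also rose. LGALS7 and LGALS7B are near copies and may share reads, so their split is uncertain, and the same may hold for ANXA8L1 and its relatives. CPNE9 (-1.26), LGALS8 (-1.05), S100B (-0.87) and ANXA7 (-0.77) fell. The calls for S100A16, CPNE1, S100B, ANXA7 and S100A2 were each lost without at least 1 library. LGALS8 was at 30.3 to 35.0 FPKM in all 8/16-cell libraries and at 10.5 to 20.0 FPKM in all morulae, the reverse of LGALS3 and LGALS4.

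Between KD and NC morulae 0.697% of all genes passed and 21.2% had an unadjusted p under 0.05 (limma). None of the 21 other family genes passed (limma, 0 at an adjusted p under 0.05 and 6 at an unadjusted p under 0.05). With the replicate number as a block 4 passed, against 11.9% of all genes (3.89% higher and 8.0% lower in KD): ANXA6 (log2 difference -1.05, SE 0.15, adjusted p 0.00592), CPNE1 (-0.66, SE 0.18, adjusted p 0.0461) and S100A16 (-0.70, SE 0.18, adjusted p 0.043) fell, and LGALS4, a galectin of gut epithelium, rose (0.75, SE 0.16, adjusted p 0.0239). LGALS4 stood at 28.5, 13.8 and 26.4 FPKM in NC, against 54.3, 27.6 and 35.0 FPKM in KD morulae, and its groups overlapped. Without the block and without single libraries the difference of LGALS4 ran from 0.43 (without NC replicate 2) to 0.96 (without KD replicate 2), and that of S100A16 from -1.07 (without NC replicate 2) to -0.39 (without NC replicate 1). Among the most abundant of the other family genes, LGALS7 (-0.16), S100A2 (-0.04) and S100A5 (-0.81) did not pass in either fit. Without KD morula replicate 1 limma called 2 genes, ANXA6 (-1.38, adjusted p 0.0442) and ANXA4, which was higher in KD (1.45, adjusted p 0.0268). The share of all genes called in that fit is not given here, so nothing is read from this count. The median log2 difference of the 21 genes was -0.04, against -0.08 for all genes.

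**Figure D4:**
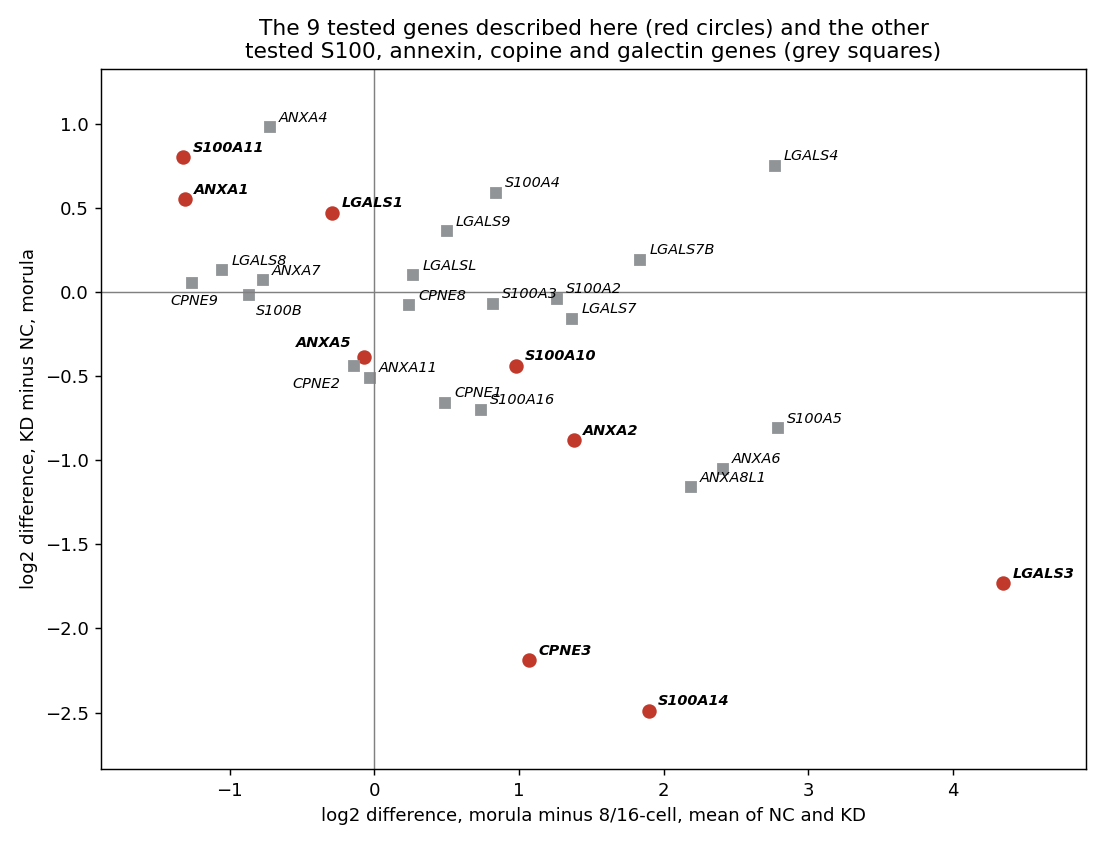
Log2 difference between KD and NC morulae (vertical) against the log2 difference between stages averaged over treatments (horizontal), for the 9 tested genes described here (red circles) and the 21 other tested genes of the families (grey squares). S100A14, CPNE3 and LGALS3 lie lowest, and LGALS4 lies at 2.77 and 0.75.

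The S100A genes lie on 1 chromosome, and in the order of the RefSeq annotation of another build (ARS-UCD2.0) S100A14 lies between S100A13 and S100A16, while S100A11 and S100A10 are next to each other. S100A14 and its neighbours differed in level: S100A13 had a mean of 0.193 FPKM over all libraries, and S100A16 had means of 9.55 FPKM in NC and 9.27 FPKM in KD 8/16-cell embryos and 22.4 and 12.5 FPKM in morulae. S100A16 rose between stages by 0.74 against 1.90 for S100A14. The adjacent S100A11 and S100A10 moved to opposite sides between stages (-1.32 and 0.98). S100A8 and S100A12 were at 0 in every library. RMDN1, the gene after CPNE3, also rose between stages (1.56, limma adjusted p 0.000796), with a log2 difference of -0.43 between KD and NC morulae against -2.19 for CPNE3. None of the 10 genes overlaps another protein-coding gene in that annotation.

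**Figure D5:**
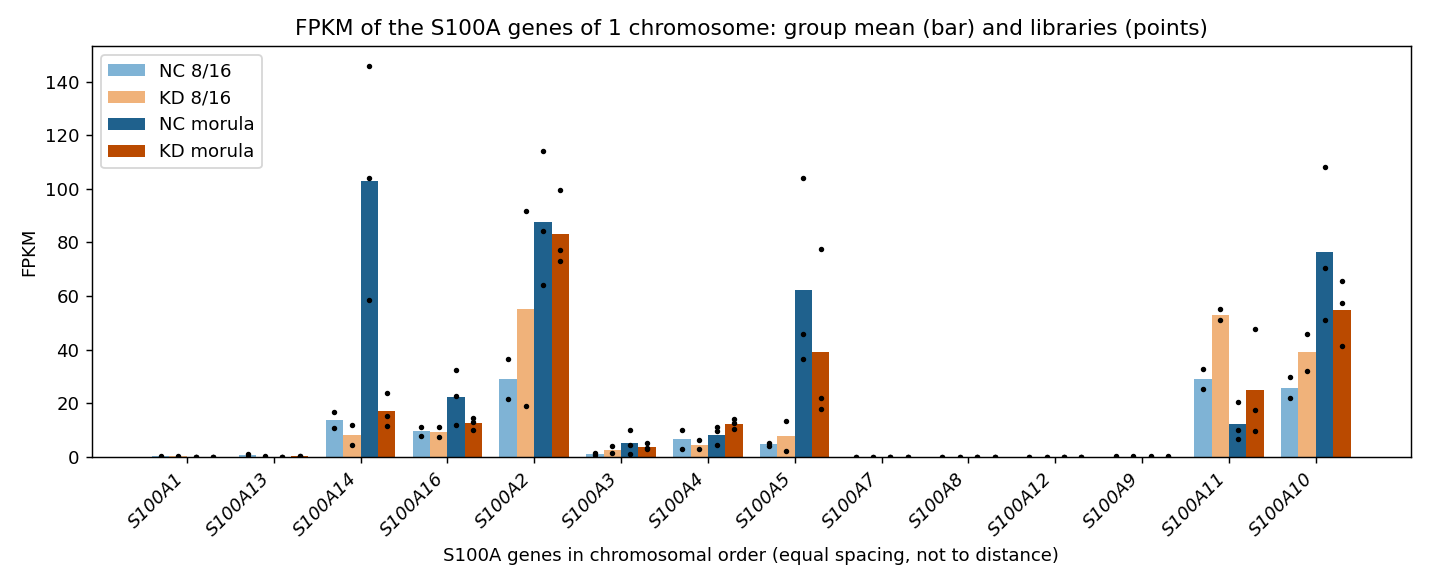
FPKM of the 14 S100A genes in chromosomal order (equal spacing), as group means (bars) with each library as a point. The mean of S100A14 goes from 13.6 to 103 FPKM in NC and from 8.2 to 17.0 FPKM in KD, the mean of S100A11 is lower in morulae, and S100A8 and S100A12 were at 0.

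Genes that work with annexins in membrane repair, with direct partners of S100A10 and LGALS3, formed a list of 20 genes, 15 of them tested. None passed between KD and NC morulae (limma, 0 at an adjusted p under 0.05 and 5 at an unadjusted p under 0.05), 13 had a negative log2 difference, and the median was -0.22. Among all genes 0.697% passed, 21.2% had an unadjusted p under 0.05 and 57.9% were negative, with a median of -0.08. With the replicate block 2 fell, the calcium-dependent protease CAPN2 (log2 difference -1.24, SE 0.18, adjusted p 0.00548) and the phospholipid scramblase ANO6 (-0.58, SE 0.14, adjusted p 0.0357). PDCD6IP, an ESCRT adaptor (-0.41), and HLTF, a chromatin remodeller that binds the S100A10 complex (-0.59), did not pass in either fit. Of 20 other EF-hand genes, all tested, none passed (limma, 0 at an adjusted p under 0.05 and 5 at an unadjusted p under 0.05), 14 were below 0 and the median was -0.37, beside the same shares of all genes. With the block 6 of them fell, among them EFHD1 (-1.55, SE 0.23, adjusted p 0.00592), the reticulocalbins RCN2 (-1.09, adjusted p 0.0276) and RCN1 (-0.64, adjusted p 0.0354) and the myosin light chain MYL12A (-0.64, adjusted p 0.0196). Lower calls with the block made up 8.0% of all genes. Both lists were drawn up with earlier results of these data known, so these calls are no independent evidence about them.

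Likeness of pattern was measured by Pearson's r of log2(FPKM + 1) over the 10 libraries, which share a 2-stage structure, with every gene whose mean reached 5 FPKM as a candidate (7709, or 7710 for ANXA1). The closest genes were NPL (0.976), MANBA (0.975) and RELL1 (0.972) for S100A14, and C6H4orf19 (0.990), RNFT1 (0.983) and SPTLC2 (0.969) for CPNE3. LGALS3 was closest to MOV10 (0.997), PLXNB2 (0.993) and ALDH2 (0.991), and ANXA2 to KPTN (0.988), LOC104972118 (0.987) and TFDP2 (0.987). S100A10 was closest to CMTM3 (0.957), LAMP1 (0.955) and HARS (0.942). S100A11 was closest to DUXA (0.952), MMD (0.952) and NUDT1 (0.951), and ANXA1 to CD63 (0.973), APP (0.950) and LSS (0.942). ANXA5 was closest to RABAC1 (0.917), LOC100847700 (0.916) and PPIB (0.912), and LGALS1 to FLNA (0.905), MARK3 (0.883) and PSMG1 (0.864). Among the 10 genes themselves the highest values were those of LGALS3 with ANXA2 (0.961), CPNE3 with S100A14 (0.953) and ANXA2 with S100A14 (0.933), followed among the falling genes by ANXA1 with S100A11 (0.808).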

How the data were processed

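The authors deposited FPKM values in a table of 39911 lines and 10 library columns, and 0 columns were left unmatched to samples. Tools named, per the submitters' processing notes, are Cufflinks, featureCounts, HISAT2 and Trimmomatic, and the builds ARS-UCD1.2 and bosTau9; versions and roles are not given in the sources used here. No counts were used, so depth and counting error are unknown, and strand is not stated. The 81 symbols on several lines (11211 lines) were left out.

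FPKM was transformed to log2(FPKM + 1), and the 11761 genes whose mean reached 1 FPKM were fitted with limma-trend (limma 3.58.1, R 4.3.3; 4 group means, 10 libraries), after the method was tested on simulated data. P-values are two-sided, Benjamini-Hochberg adjusted over all genes, with a threshold of 0.05, and measure only the spread between these libraries, which may be technical. Fold differences from FPKM means are named as such.

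Members and lists were chosen with earlier results of these data known. Named were all members, other family genes that passed or else the 5 most abundant, up to 4 genes per further list by smallest p, and the 3 closest patterns. S100PBP and LGALS3BP bind family proteins and were not counted as family. Same-numbered KD and NC morulae deviated together (r = 0.37, 0.325 and 0.312), so the block fit took the replicate numbers of the sample titles as pairs. The main fit left this pairing out. Calls between morulae depended on that choice, with 0.697% of all genes called without the block and 11.9% with it. Alternatives were pseudocount, filter, scaling, block, each stage alone and leaving out each library. Sequences of promoters and proteins were not analysed here.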

Additional observations from a re-analysis of the deposited data

Results flagged for a closer look

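ANXA5 lay on opposite sides of NC at the 2 stages in every library, with a KD minus NC log2 difference of 0.39 at the 8/16-cell stage and -0.39 in morulae. The lowest NC and the highest KD morula both round to 43.3 FPKM. Seen by treatment, all NC morulae were above all NC 8/16-cell embryos, as for 24.3% of all genes, and all KD morulae below all KD ones (log2 difference -0.47), as for 36.7%. Both at once held for 1.32% of all genes, and KD above NC followed by KD below NC held for 2.53%. The difference was not tested, because the morula contrast served to choose the gene.

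ANXA11 (-0.51 in morulae), PDCD6IP (-0.41), CHMP4B (-0.38) and RCN1 (-0.64) showed the same reversal, with every KD value above NC at the 8/16-cell stage and below NC in morulae. They were named because they showed it, out of the tested other family genes (21), membrane repair genes (15) and other EF-hand genes (20). Among all genes 2.53% showed this reversal. The test of the difference between stages did not pass for any of the named genes (limma interaction adjusted p 0.589, 0.479, 0.564 and 0.479). Of all 11761 genes only 2 passed that test, so not passing says little about the named genes.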

How the results depend on the processing

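Between KD and NC 8/16-cell embryos none of the tested members passed under any of 17 alternatives. The fits held 9 of the 10 members, all 10 without the filter and 8 at a mean of 5 FPKM. Between stages 5 to 7 passed, where 43.5% of all genes passed in the main fit. Shares of all genes are not given for most of the other fits, so nothing is read from the range. LGALS3 turned sign at the 8/16-cell stage (-0.20 without NC 8/16-cell replicate 2; -0.20 to 0.40 over single libraries left out), ANXA5 between stages (0.03 with equal sums, 0.07 with quantile normalization, 0.01 without KD morula replicate 2; -0.14 to 0.01) and ANXA1 between morulae (-0.04 without KD morula replicate 3; -0.04 to 1.11). Without a filter on low values S100A11 (adjusted p 0.0524) and ANXA1 (0.0514) no longer passed between stages, and ANXA1 did not enter the fit at a mean of 5 FPKM. The median morula difference of the members ran from -0.69 to -0.28. The replicate block raised the calls between morulae from 0 to 4 for the other family genes. For the membrane repair and EF-hand lists it raised them from 0 to 8, and among all genes from 0.697% to 11.9%. Leaving out single libraries gave 0 to 2 family genes, and shares of all genes are not given for those fits. At the 8/16-cell stage same-numbered libraries correlated by 0.0558, and the block called none of the 9 genes. Between stages, where numbers are not known to pair libraries, it gave 7 calls among the 9 genes. Among all 11761 genes 2167 rose and 3553 fell between stages with the block. S100A2 turned sign between morulae with equal sums (0.03), quantile normalization (0.07) and without NC replicate 3 (0.17) or KD replicate 1 (0.00) or 2 (0.04), with a range of -0.25 to 0.17, and LGALS7 without NC replicate 3 (0.11) or KD replicate 2 (0.09), with a range of -0.53 to 0.11. Calls between stages were lost without 1 library for S100A16 (any of 7 libraries, adjusted p 0.0538 to 0.143), CPNE1, S100B, ANXA7 and S100A2 (NC 8/16-cell replicate 2, 0.0805). Quantile normalization moved the median stage change of all genes from -0.131 to -0.00379. Without counts, the limit that depth sets on low genes such as ANXA3 is unknown.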
